A study of Mus musculus with 8 samples.

Results

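Klf2, Klf4, Klf6 and Piezo1 were examined in endothelial cells of mouse tumors, as 4 flow-responsive genes among the 35756 rows of the deposited gene table. Their rows were found by gene symbol, and the genes were chosen with earlier results of these data known. All of them passed the filter on low counts, which kept 14539 genes. Cells came from Tie2-CreERT2;PPARβ/δ mice of the strain C57BL/6 that carried LLC1 Lewis lung carcinoma tumors, and there were 8 libraries, 1 per mouse. The Tamoxifen group (libraries Tax2604, Tax2689, Tax2382 and Tax2455) had received 33 mg/kg Tamoxifen per day for 1 week by intraperitoneal injection, and the vehicle group (oil2453, oil2315, oil2653 and oil2368) sunflower oil. Tumor cells were injected under the skin 1 week later, tumors were taken after a further 3 weeks, and cells were purified with magnetic beads against CD31. The labels call the vehicle mice wild-type and the Tamoxifen mice Ppard overexpressing, although by the methods the genotype was the same in both groups. Tie2-CreERT2 is a recombinase that Tamoxifen activates in cells that use the Tie2 promoter, which include endothelial cells and some blood cells, and it switches on the additional PPARβ/δ, a nuclear receptor that responds to fatty acids. Mice with the recombinase alone under Tamoxifen are not among the libraries, so the added PPARβ/δ, the drug and the activated recombinase cannot be told apart as sources of a difference.

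Endothelial cells sense the drag of flowing blood. PIEZO1 is a channel that opens when the membrane is stretched and lets calcium enter the cell. A kinase cascade of MEKK3, MEK5 and ERK5 activates MEF2 transcription factors, which switch on KLF2 and KLF4, zinc finger factors that keep vessels quiescent, resistant to clotting and low in adhesion molecules. KLF6 is a related factor that is induced rapidly after vessel injury and is also used by macrophages. None of these genes is restricted to endothelium. Klf2 is abundant in resting lymphocytes, Klf4 in monocytes, and Piezo1 in red blood cells and many other cells.

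The promoters are shown because the MEF2 step of this pathway acts on DNA close to the start of Klf2. The RefSeq promoter table (GRCm38.p6) held all 4 genes, each with 250 bases before and 50 after the start. Of these, 3 are printed 5′ to 3′ on the strand of the gene, and capitals mark the MEF2 motif, TATAAA and CACCC or its reverse complement GGGTG, the core of the sites that KLF proteins bind. The windows are chr8:72318812-72319111 on the plus strand for Klf2, chr4:55532426-55532725 on the minus strand for Klf4 and chr8:122551280-122551579 on the minus strand for Piezo1.
Klf2: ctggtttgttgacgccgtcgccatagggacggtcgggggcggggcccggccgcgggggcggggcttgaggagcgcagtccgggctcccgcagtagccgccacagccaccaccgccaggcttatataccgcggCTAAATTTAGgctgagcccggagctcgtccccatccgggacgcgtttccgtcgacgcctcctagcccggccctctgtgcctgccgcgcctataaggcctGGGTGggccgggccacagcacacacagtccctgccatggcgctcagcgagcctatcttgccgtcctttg
Klf4: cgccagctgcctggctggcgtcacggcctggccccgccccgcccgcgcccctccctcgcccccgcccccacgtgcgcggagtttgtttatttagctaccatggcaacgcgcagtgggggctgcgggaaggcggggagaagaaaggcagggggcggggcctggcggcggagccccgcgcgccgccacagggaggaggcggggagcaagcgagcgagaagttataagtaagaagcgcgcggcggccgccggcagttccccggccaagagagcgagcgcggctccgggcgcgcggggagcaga
Piezo1: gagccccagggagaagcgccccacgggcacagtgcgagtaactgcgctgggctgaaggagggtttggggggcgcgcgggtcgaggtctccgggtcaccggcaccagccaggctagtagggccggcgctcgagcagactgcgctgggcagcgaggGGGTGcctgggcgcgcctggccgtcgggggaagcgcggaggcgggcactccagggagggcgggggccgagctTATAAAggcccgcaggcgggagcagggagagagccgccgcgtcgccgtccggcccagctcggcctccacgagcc
The Klf2 promoter held 1 match to the MEF2 motif, CTAAATTTAG, which begins at position -118 from the start, and Klf4, Klf6 and Piezo1 held none. Such a match was present in 3.19% of 32851 promoters of that length. TATAAA was found at position -24 of Piezo1 and in 13.6% of all promoters. CACCC was found once in Klf2 and once in Piezo1, and in 57.5% of all promoters. AGGTCA, a form of the site of a single nuclear receptor unit such as PPARβ/δ, was in 16.3% of all promoters and in none of these 4. The variant GGGTCA, which the paired motif also allows, was not searched on its own, and the printed Piezo1 window contains it. The paired PPAR motif was in 0.128% of all promoters and again in none of the 4. All motifs were searched on both strands. The 4 windows were rich in G and C, at 69.3% for Klf2, 74.3% for Klf4, 63.0% for Klf6 and 75% for Piezo1, against a median of 52.7% over all promoters. They held 23 to 40 CpG dinucleotides, against a median of 7.

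The libraries held 19730726 to 24884372 counts. Levels are given as CPM (counts scaled to a library of 1e+06), scaled by the trimmed mean of M values (TMM) of each library, as mean ± SD with n = 4 per group. The library oil2453 stood apart. Ribosomal protein genes took 20.7% of its counts, against 4.59 to 10.4% in the others, and hemoglobin genes 0.474%, against at most 0.0568%. Its summed macrophage markers were at 4620 CPM, whereas the other libraries were at 7785 to 14332 CPM. The library oil2653 had the most B cell markers, 785 CPM against 20.9 to 154 CPM elsewhere. The CD31 isolates were a mixture. Pecam1, which encodes CD31, was at 857 ± 211 CPM with Tamoxifen against 304 ± 83.3 CPM with vehicle, and Lyz2, a macrophage and monocyte marker, at 3913 ± 838 and 2986 ± 996 CPM. The T cell marker Cd3e was at 2.77 ± 1.66 CPM with Tamoxifen against 8.11 ± 10.7 CPM with vehicle, where oil2653 alone was at 23.8 CPM, and the log2 fold change of -1.55 was -0.06 without that library. Of 20 pan-endothelial markers, 18 were higher with Tamoxifen at an unadjusted p under 0.05. Their summed level was 2799 to 5417 CPM with Tamoxifen and 432 to 1926 CPM with vehicle, without overlap. Mural cell markers, of pericytes and smooth muscle, were higher for 8 of 10 genes at that p, with sums of 248 to 448 CPM against 35 to 128 CPM. Of the macrophage and monocyte markers 0 of 9 were under that p in either direction. In such bulk samples fewer endothelial cells and less RNA per cell cannot be told apart. Ppard itself was at 108 ± 24.6 CPM with Tamoxifen against 74.4 ± 15.2 CPM with vehicle, a log2 fold change of 0.53 (SE 0.25, adjusted p = 0.460, edgeR's quasi-likelihood test).

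None of the 4 genes passed an adjusted p of 0.05 between Tamoxifen and vehicle, and for each of them the groups overlapped. No gene of the 14539 tested passed (0%), with the lowest adjusted p at 0.0732. Without adjustment, 1075 genes (7.39%) were higher and 515 (3.54%) lower with Tamoxifen at a p under 0.05, and none of the 4 was among them in this fit. DESeq2 called 574 of the same 14539 genes and limma-voom 0, and neither called any of the 4. Shares over all genes at an unadjusted p were counted only in edgeR with TMM scaling and all libraries. Every Tamoxifen library lay above every vehicle library for 5.87% of all genes and below for 2.01%.

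Klf2 lies on chromosome 8 from 72319033 to 72321656 (plus strand, GRCm38). With vehicle it was at 857 CPM in oil2453, 485 CPM in oil2315, 283 CPM in oil2653 and 183 CPM in oil2368. With Tamoxifen it was at 352 CPM in Tax2604, 424 CPM in Tax2689, 376 CPM in Tax2382 and 327 CPM in Tax2455. The Tamoxifen libraries were close together and lay inside the wide range of the vehicle libraries. Means were 370 ± 41.5 CPM with Tamoxifen and 452 ± 298 CPM with vehicle, and the log2 fold change was -0.29 (SE 0.43, 95% interval -1.25 to 0.67, adjusted p = 0.819, edgeR). The coefficient of variation of Klf2 was 11.2% with Tamoxifen and 65.9% with vehicle, where the medians of all genes were 26.5% and 37.0%. The sign of the difference depended on oil2453, and without it the log2 fold change was 0.23. It also depended on the fit. With all libraries, the log2 fold change was positive in both limma fits of FPKM and with the covariate described below for Piezo1. The library oil2453 had the most hemoglobin and the highest epithelial and carcinoma markers, 759 CPM against at most 226 CPM elsewhere. It also had the highest summed pan-endothelial markers of the vehicle group, 1926 CPM. The part of its mixture of cells in the value was not tested.

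Klf4 lies on chromosome 4 from 55527143 to 55532466 (minus strand). With vehicle it was at 125 CPM in oil2453, 320 CPM in oil2315, 206 CPM in oil2653 and 202 CPM in oil2368. With Tamoxifen it was at 291 CPM in Tax2604, 389 CPM in Tax2689, 178 CPM in Tax2382 and 200.0 CPM in Tax2455. The lowest library was the one in which Klf2 was highest, and 2 of the 4 Tamoxifen libraries lay below 3 of the 4 vehicle libraries. Means were 265 ± 96.5 CPM with Tamoxifen and 213 ± 80.4 CPM with vehicle, a log2 fold change of 0.31 (SE 0.35, 95% interval -0.47 to 1.09, adjusted p = 0.744, edgeR). Klf4 counts were 0.146 times the Klf2 counts in oil2453 and 0.473 to 1.10 times in the other 7 libraries.

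Klf6 lies on chromosome 13 from 5861489 to 5870393 (plus strand). With vehicle it was at 769 CPM in oil2453, 906 CPM in oil2315, 440.0 CPM in oil2653 and 799 CPM in oil2368. With Tamoxifen it was at 594 CPM in Tax2604, 522 CPM in Tax2689, 431 CPM in Tax2382 and 501 CPM in Tax2455. Only oil2653 of the vehicle libraries fell within the range of the Tamoxifen libraries, and the other 3 lay above all of them. Means were 512 ± 67.0 CPM with Tamoxifen and 728 ± 201 CPM with vehicle, a log2 fold change of -0.51 (SE 0.28, 95% interval -1.13 to 0.11, unadjusted p = 0.0972, adjusted p = 0.494, edgeR). The log2 fold change was -0.69 to -0.40 when each library was left out in turn, and without oil2653, where it was -0.69, the unadjusted p was 0.0261 (adjusted p = 0.504, edgeR).

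Piezo1 lies on chromosome 8 from 122481698 to 122551329 (minus strand) and overlaps the oppositely oriented gene Ctu2 by 2441 bases. These 2441 bases are of the whole gene spans. The library kit does not mark strand, so reads there that either gene could have given cannot be told apart. How many reads this concerned was not tested. Ctu2 held 851 counts in oil2453 against 809 of Piezo1 and 672 in oil2653 against 902, whereas in the other 6 libraries it held 324 to 495 counts against 3255 to 7797 of Piezo1. A second gene model on the opposite strand, Gm20388, spans all 69632 bases of Piezo1 and had 0 counts in every library. With vehicle Piezo1 was at 48.8 CPM in oil2453, 193 CPM in oil2315, 38.6 CPM in oil2653 and 170 CPM in oil2368. With Tamoxifen it was at 383 CPM in Tax2604, 138 CPM in Tax2689, 301 CPM in Tax2382 and 222 CPM in Tax2455. The vehicle libraries formed a low and a middle pair, and 3 Tamoxifen libraries lay above all of them while Tax2689 lay below the middle pair. Means were 261 ± 105 CPM with Tamoxifen and 112 ± 80.0 CPM with vehicle, a ratio of 2.32. The log2 fold change was 1.22 (SE 0.55, 95% interval -0.02 to 2.45, unadjusted p = 0.0531, adjusted p = 0.460, edgeR), higher than that of 94.5% of all tested genes. It was 0.93 to 1.59 when each library was left out in turn. The unadjusted p was 0.0308 in DESeq2, 0.0304 in limma-voom, and 0.0251 and 0.0269 in the limma fits of FPKM. With no filter on low counts the unadjusted p in edgeR was 0.0348. The adjusted p was 0.295 or above in each of these. In edgeR with library size alone, with median-of-ratios scaling or with at least 10 counts in each library, Piezo1 was not under an unadjusted p of 0.05. The shares of all genes under that p were not counted in these alternatives.

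**Figure D1:**
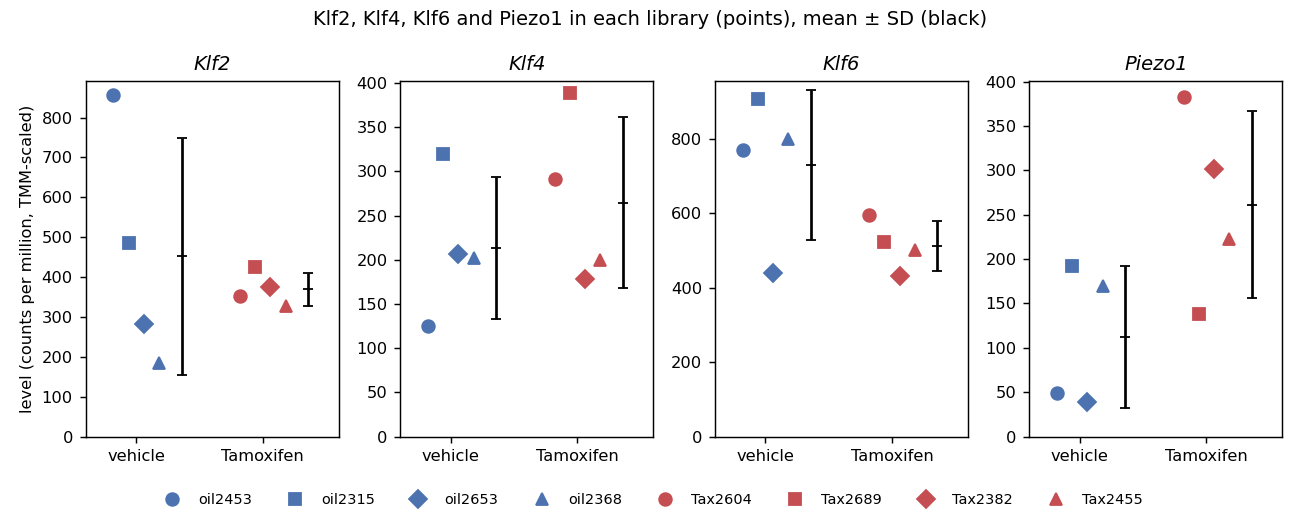
Levels of Klf2, Klf4, Klf6 and Piezo1 (y axes, TMM-scaled CPM, each starting at 0) in the 4 vehicle libraries (blue) and the 4 Tamoxifen libraries (red), with 1 symbol per library and black bars for mean ± SD. The Klf2 values of the vehicle group span 183 to 857 CPM and enclose the Tamoxifen values, and for Piezo1 3 of the 4 Tamoxifen libraries lie above every vehicle library.

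Piezo1 has a long transcript, listed at 8216 bases. Its level was lowest in the libraries with the smallest share of counts in genes of at least 5000 bases. It was highest in the library with the largest share. Among the other libraries, at 17.1 to 18.4%, it did not rise steadily with the share. That share was 9.63% in oil2453 and 11.9% in oil2653, the pair of vehicle libraries in which Piezo1 was lowest, and 18.4% in oil2315 and 17.2% in oil2368. With Tamoxifen it was 23.2% in Tax2604, in which Piezo1 was highest, 17.1% in Tax2689, in which Piezo1 was lowest of that group, 17.5% in Tax2382 and 18.3% in Tax2455. Over the 2715 tested genes of that length the median log2 fold change was 0.23, against -0.10 over the others, and 8.73% of the long genes and 4.73% of the others reached the value of Piezo1. With the share as a covariate, a fit chosen after seeing the data, the log2 fold change of Piezo1 was 0.38 (SE 0.37, unadjusted p = 0.339, edgeR). The same fit gave 0.17 for Klf2, -0.0062 for Klf4 and -0.74 for Klf6, all with an adjusted p above 0.05. The share was 9.63 to 18.4% with vehicle and 17.1 to 23.2% with Tamoxifen. It was thus partly tied to group, and this fit cannot tell the share from the treatment. Piezo1 is itself one of the 3272 genes in the share.

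**Figure D2:**
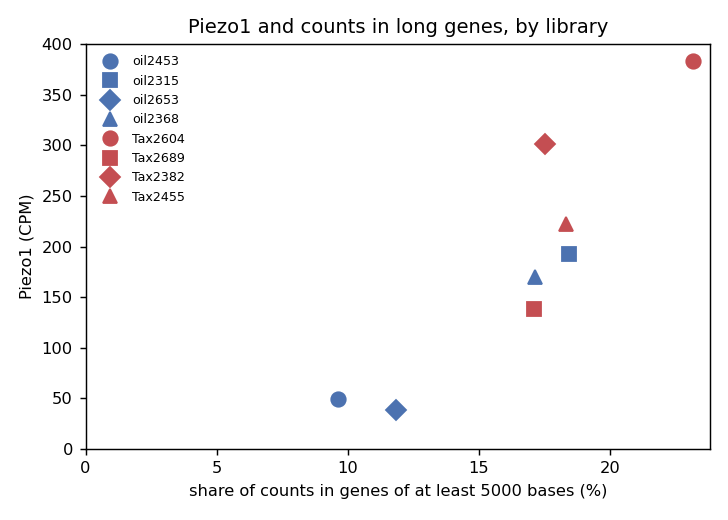
Piezo1 level (y axis, TMM-scaled CPM) against the share of counts in genes of at least 5000 bases (x axis, percent), 1 point per library, vehicle in blue and Tamoxifen in red. The pair of vehicle libraries with the smallest shares, 9.63% and 11.9%, had 48.8 and 38.6 CPM of Piezo1.

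Levels of different genes were compared on the deposited FPKM (fragments scaled to transcript length and to library depth), which divides by length. With vehicle the order of the mean levels was Klf2 at 223 ± 114, Klf6 at 167 ± 54.6, Klf4 at 146 ± 69.0 and Piezo1 at 34.5 ± 26.7 FPKM. With Tamoxifen it was Klf2 at 208 ± 27.7, Klf4 at 189 ± 75.6, Klf6 at 127 ± 21.0 and Piezo1 at 81.4 ± 30.8 FPKM. Klf2 was above Klf4 in 3 of 4 vehicle libraries and in 2 of 4 Tamoxifen libraries, so these neighbours were not separated beyond their spread. Klf4 was above Klf6 in 2 of 4 vehicle libraries and in all 4 Tamoxifen libraries. Piezo1 was the lowest of the 4 genes in every library. Klf2 ranked between position 324 and 1098 by FPKM among the 17816 to 19945 genes with a count in a library, and Piezo1 between 916 and 6326.

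The 4 genes were also set against the endothelial content of the isolates, and no ratio passed after adjustment. Klf6 was at 402 to 819 counts per 1000 counts of Pecam1 with Tamoxifen and at 1494 to 4220 with vehicle, without overlap. The difference was -1.97 on the log2 scale (exact two-sided permutation test over 70 assignments, p = 0.0286, the smallest this design allows; adjusted p = 0.0762 over 8 ratios, lower in 4 of 4 libraries). Klf2 was at 350.4 to 561 per 1000 counts of Pecam1 with Tamoxifen and at 440.4 to 2946 with vehicle, with overlap. Klf4 was at 166 to 514 and 431 to 1492, again with overlap, and for both the exact permutation test gave p = 0.0857. Piezo1 was at 182 to 388 per 1000 counts of Pecam1 with Tamoxifen and inside the vehicle range of 131 to 897, with a difference of -0.04 on the log2 scale (exact permutation test, p = 0.914).

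Set against the 20 summed pan-endothelial markers in place of Pecam1, the log2 differences were -2.09 for Klf2, -1.71 for Klf4, -2.50 for Klf6 and -0.57 for Piezo1. The groups did not overlap for Klf2 and Klf6 (exact permutation test, p = 0.0286 each, adjusted p = 0.0762), and overlapped for Klf4 (p = 0.0857, exact permutation test) and Piezo1 (p = 0.6, exact permutation test). The denominator moved in these ratios, whereas the CPM of the Klf factors moved by at most 0.51 on the log2 scale. Here too the share of all genes without overlap was not counted, so the separation is not particular to Klf2 and Klf6. When all genes were scaled so that the mean level of the markers was equal in all libraries, the median gene had a log2 fold change of -2.64. Relative to that median, Klf2 was at -0.19, Klf4 at 0.04, Klf6 at -0.57 and Piezo1 at 0.82. How much of each transcript came from endothelial cells was not tested.

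**Figure D3:**
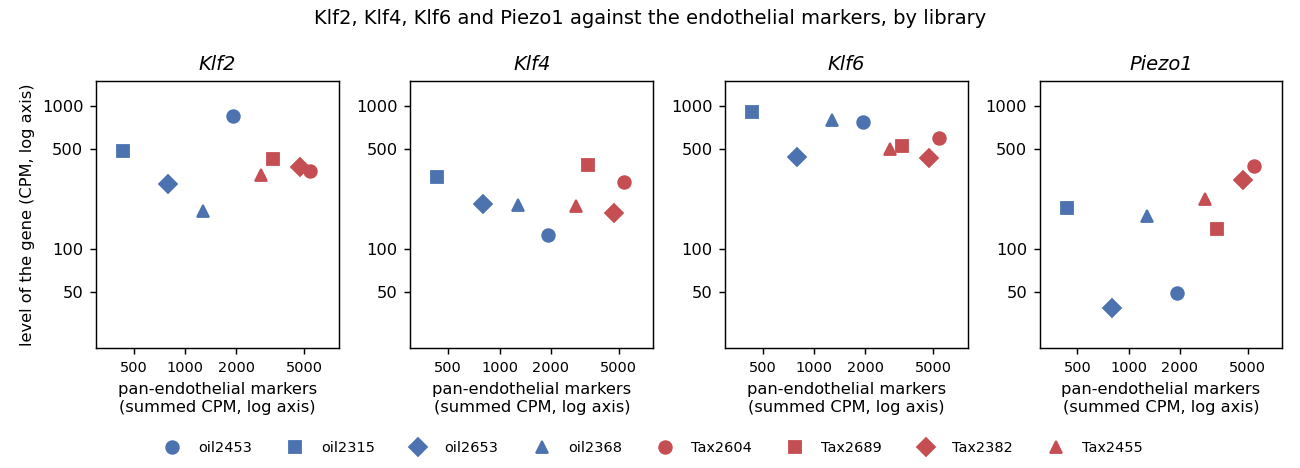
Levels of Klf2, Klf4, Klf6 and Piezo1 (y axes, CPM, log scale) against the summed level of 20 pan-endothelial markers (x axes, CPM, log scale), 1 point per library, vehicle in blue and Tamoxifen in red. The markers run from 432 CPM in oil2315 to 5417 CPM in Tax2604, and in both of these libraries Klf4 is at 291 CPM or above.

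Of the other 14 members of the KLF family, 9 were tested, 2 were higher with Tamoxifen at an unadjusted p under 0.05 and none lower. Klf3, a repressor of the same DNA sites, was at 80.8 ± 25.3 CPM with Tamoxifen against 41.9 ± 13.1 CPM with vehicle, a log2 fold change of 0.95 (SE 0.31, adjusted p = 0.281, edgeR). Klf13 was at 129 ± 23.6 and 86.6 ± 12.8 CPM, a log2 fold change of 0.57 (SE 0.21, adjusted p = 0.362, edgeR). For both, every Tamoxifen library lay above every vehicle library, as for 5.87% of all genes tested. The median of the family was 0.52, against -0.03 over all genes tested (-2.24 against -2.64 when scaled to the endothelial markers), and Klf16 alone was below 0, at -0.41. With the share of counts in long genes as a covariate, which was partly tied to group, 0 of the 9 were under an unadjusted p of 0.05.

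Mechanosensors of the endothelial membrane, other than Piezo1, were all tested, and 10 of 14 were higher with Tamoxifen at an unadjusted p under 0.05, with none lower. Their median log2 fold change was 1.49 (-1.14 when scaled to the endothelial markers, against -2.64 for all genes). With the share of counts in long genes as a covariate, 8 of the 14 were higher at that p. Piezo2, the second channel of the Piezo family, known best from touch-sensing neurons, was at 2.90 CPM in oil2453, 1.21 CPM in oil2315, 2.06 CPM in oil2653 and 6.58 CPM in oil2368. It was at 54.6 CPM in Tax2604, 16.9 CPM in Tax2689, 31.8 CPM in Tax2382 and 25.8 CPM in Tax2455. Unlike those of Piezo1, the groups of Piezo2 did not overlap, and the log2 fold change was 3.34 (SE 0.57, adjusted p = 0.0732, edgeR). Gna11, a G protein subunit of flow sensing, was at 39.6 ± 6.23 CPM with Tamoxifen against 16.4 ± 3.14 CPM with vehicle, a log2 fold change of 1.27. Kdr, the VEGF receptor of the junctional sensor complex, had a log2 fold change of 2.28, and Cdh5, the cadherin that holds this complex, of 2.74. These 4 genes had the smallest p values of the list, and Pecam1 and Flt4 also belong to it. Pecam1, Cdh5 and Kdr are at the same time pan-endothelial markers, and 18 of those 20 markers were higher in the same comparison. DESeq2 called 8 of the 14, and edgeR without oil2453 called 5, Piezo2, Gna11, Cdh5, Kdr and Flt4. Over all genes these fits called 574 and 256.

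The pathway that induces Klf2 and Klf4, together with the CCM complex that restrains it, had members on both sides of 0. Of 13 tested genes of the MEK5-ERK5-MEF2 and CCM pathway, 2 were higher at an unadjusted p under 0.05, none lower, and the median log2 fold change was 0.04 (-2.53 in that scaling). Heg1, the receptor that anchors the CCM complex at the membrane, was at 83.5 ± 37.7 CPM with Tamoxifen against 23.3 ± 7.80 CPM with vehicle, a log2 fold change of 1.84 (SE 0.36, adjusted p = 0.0867, edgeR). Map3k3, which encodes MEKK3 at the head of the cascade, was at 100 ± 19.4 and 52.8 ± 27.5 CPM, a log2 fold change of 0.93 (SE 0.39, adjusted p = 0.433, edgeR). The kinases further down were at -0.03 for Map2k5 (MEK5) and 0.29 for Mapk7 (ERK5), and the MEF2 genes at 0.45 for Mef2a, 0.77 for Mef2c and 0.43 for Mef2d. The CCM components Krit1, Ccm2 and Pdcd10 were at -0.16, -0.28 and -0.28, and edgeR with TMM scaling and all 8 libraries called no gene of the list. DESeq2, edgeR with library size alone and both limma fits of FPKM called Heg1 and no other gene of the list.

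Genes known to be induced by KLF2 or KLF4 in endothelium had higher values with Tamoxifen. In edgeR with TMM scaling, neither these genes nor Klf2 and Klf4 themselves passed an adjusted p of 0.05. Of 10 tested, 7 were higher at an unadjusted p under 0.05 and none lower, with a median log2 fold change of 1.58 (-0.69 when scaled to the endothelial markers). With the share of counts in long genes as a covariate, 7 of the 10 were higher at that p. Aqp1, a water channel, was at 937 ± 298 CPM with Tamoxifen against 173 ± 109 CPM with vehicle, a log2 fold change of 2.44 (SE 0.56, adjusted p = 0.119, edgeR). Nos3, the endothelial nitric oxide synthase, was at 47.0 ± 25.1 and 9.20 ± 6.60 CPM, a log2 fold change of 2.36. Tek, the angiopoietin receptor, had a log2 fold change of 2.83, and S1pr1, a sphingosine 1-phosphate receptor, of 1.59. For these 4 genes, every Tamoxifen library lay above every vehicle library. This held for 5 of the 10 tested and for 5.87% of all genes tested. None of the 10 was called by edgeR with TMM scaling and all 8 libraries. DESeq2 and the limma fit of log2(FPKM + 1) each called 5 of the 10, Nos3, S1pr1, Tek, Aqp1 and Plat. Without oil2453, edgeR called 3, Nos3, Plat and Slc9a3r2. Over all genes these fits called 574, 317 and 256. Thbd, thrombomodulin, was at 83.3 ± 27.2 and 62.9 ± 26.5 CPM with a log2 fold change of 0.41, and its groups overlapped. The pan-endothelial markers had a median of 2.17, and Tek is in both lists.

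Genes listed here as lowered by KLF2 or KLF4 did not, as a list, have the opposite direction. Of 12 tested, 5 were higher at an unadjusted p under 0.05 and none lower, with a median log2 fold change of 0.73 (-1.46 in that scaling). Adamts4, a matrix protease, was at 619 ± 318 CPM with Tamoxifen against 66.8 ± 50.5 CPM with vehicle, a log2 fold change of 3.21 (SE 0.57, adjusted p = 0.0732, edgeR), without overlap, and was called by DESeq2. Adamts5, Sele (E-selectin) and Angpt2, an antagonist of Tek, had log2 fold changes of 1.59, 1.32 and 1.37, with overlap. Whether KLF2 or KLF4 lowers Adamts4 and Adamts5 was not tested, and the place of both in this list is uncertain. Ccl2, a monocyte chemokine, was at -0.68, Cxcl1 at -0.41, and F3, tissue factor, at -1.25, and oil2453 had the highest Ccl2, 1389 CPM, and the highest F3, 156 CPM. Without oil2653, 2 were higher and 2 lower at that p. With the share of counts in long genes as a covariate, which was partly tied to group, 2 of the 12 were higher and none lower. The induced and repressed lists thus both had medians above the -0.03 of all genes.

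**Figure D4:**
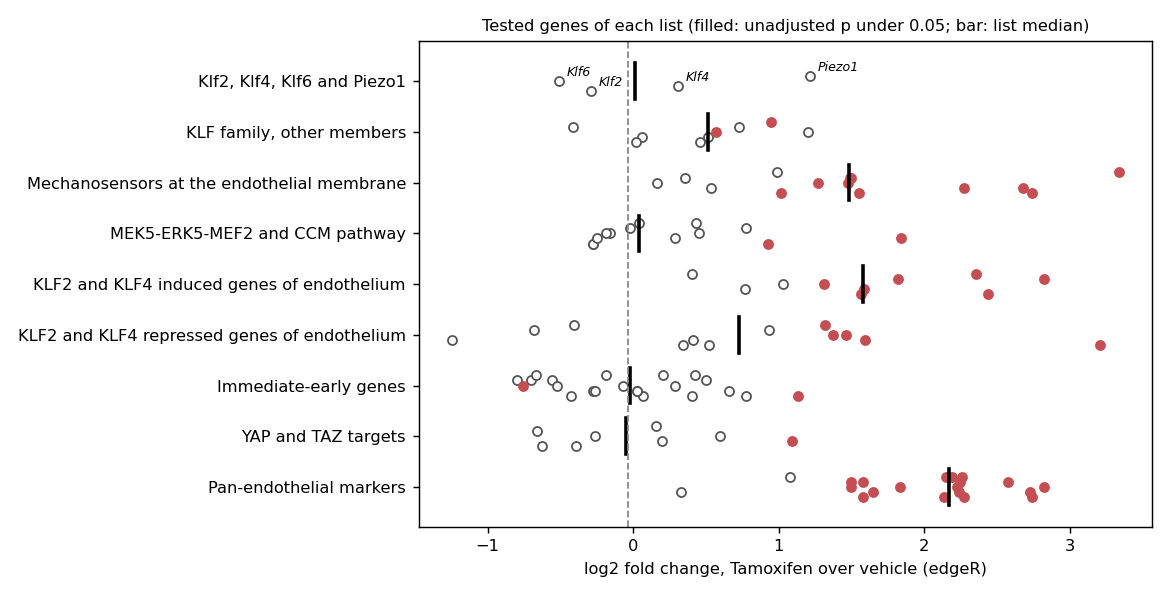
Log2 fold change of Tamoxifen over vehicle (x axis, edgeR) for every tested gene of 9 lists (y axis), 1 circle per gene, filled where the unadjusted p was under 0.05. Black bars are list medians and the dashed line is the median of all tested genes, -0.03, and the list medians run from -0.05 for YAP and TAZ targets to 2.17 for pan-endothelial markers.

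Klf2, Klf4 and Klf6 also respond within minutes to cell dissociation, as immediate-early genes do. Of 22 such genes, 1 was higher and 1 lower with Tamoxifen at an unadjusted p under 0.05, and the median log2 fold change was -0.02 (0.06 with library size alone). Egr3 was at 12.2 ± 4.82 CPM with Tamoxifen against 5.55 ± 2.01 CPM with vehicle (log2 fold change 1.13), and Ier2 at 141 ± 30.8 and 239 ± 94.2 CPM (log2 fold change -0.76). Egr1, Ier3 and Ier5, 3 of the 22, were lower in the Tamoxifen group without overlap, as were 2.01% of all genes tested. Their log2 fold changes were -0.70, -0.56 and -0.67, and they were named after their values were seen. The summed level of the 22 genes was 9848 to 12349 CPM with Tamoxifen and 9572 to 13149 CPM with vehicle, so the groups overlapped. The part of dissociation in the levels of the Klf genes was not tested.

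YAP and TAZ are transcriptional coactivators that answer to stretch and flow. Of 8 target genes, 1 was higher with Tamoxifen at an unadjusted p under 0.05 and none lower, and the median log2 fold change was -0.05 (0.12 with library size alone). Amotl1, which encodes a junction protein, was at 78.0 ± 26.2 CPM with Tamoxifen against 36.6 ± 14.2 CPM with vehicle, a log2 fold change of 1.09. Ccn1, a secreted matrix protein, was at 2359 CPM in oil2453 and 139 to 187 CPM in the other vehicle libraries. Without oil2453, 3 of the 8 were higher at that p, the median was 0.44, and Ccn2 was called by edgeR. That fit called 256 genes over all genes, and its share at an unadjusted p was not counted. With any other library left out, 1 of the 8 was higher at that p.

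The genes whose log2 CPM followed each factor most closely over the 8 libraries differed from factor to factor, in a search of 14209 tested genes with a symbol. They were Il17d, Gatsl3 and Nudt13 for Klf2, with Pearson's r of 0.94, 0.93 and 0.93. Those of Klf4 were Uvssa, Zfp933 and 1700056N10Rik (r of 0.96, 0.96 and 0.94), and those of Klf6 AA986860, Zfp438 and Blzf1 (r of 0.94, 0.93 and 0.92). Piezo1 was followed by Spen, Homer3 and Ubr4, each at an r of 0.99. Spen and Ubr4 are long genes, listed at 12299 and 15928 bases, and Homer3 is listed at 2608. After each group was centred on its mean, the closest genes were Il17d, Gatsl3 and Nudt13 again for Klf2, Zfp39, Polg2 and Igsf9 for Klf4, A430105I19Rik, Prkab2 and Arhgef28 for Klf6 and Dnmbp, Spen and Ago2 for Piezo1, at r of 0.95 to 0.997. Among the 4 genes, Klf2 had an r of -0.20 with Klf4, 0.23 with Klf6 and -0.27 with Piezo1, and Klf4 had an r of 0.40 with Piezo1. Klf6 and Piezo1 had an r of -0.01 over the 8 libraries and of 0.65 after each group was centred. These correlations describe 8 libraries that share depth, composition and, in part, group, and are the highest of many.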

How the data were processed

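The authors filtered the reads and counted them per gene with HTSeq 0.6.1, and the submitters' notes list Bowtie2 2.2.3, TopHat2 2.0.12 and mm8. Of 34490 shared gene identifiers, 99.8% overlap their GRCm38 positions in GENCODE M21, so positions are given as GRCm38. The deposited counts are whole numbers, and the deposited FPKM are the authors' length-scaled values of each library. Columns with the authors' fold changes, p-values and normalized group means were not used.

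R 4.3.3 was used. The main test was edgeR 4.0.16 (quasi-likelihood, TMM, minimum count 10, Benjamini-Hochberg over 14539 genes, adjusted p under 0.05). Alternatives were DESeq2 1.42.0, limma 3.58.1 (voom on counts, trend on log2 FPKM with a pseudocount of 1 or 0.1 for genes above 1 FPKM in 4 libraries), other scalings and filters, and each library left out. Only the main edgeR fit was tried on simulated counts. Ratios were compared by exact permutation. Intervals and p-values measure the spread between mice. The genes and lists were chosen with earlier results of these data known. Named list genes are the 4 with the smallest unadjusted p under 0.05 in each list, those of opposite direction, and genes named after their values were seen: Thbd, the pathway components, Egr1, Ier3, Ier5 and Ccn1. Correlations used log2 CPM with a prior count of 2.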

Additional observations from a re-analysis of the deposited data

How the results depend on the processing

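No paired analysis was possible because the groups share no replicate number. Klf2 was at 0.053 on the log2 scale in the limma fit of FPKM with a pseudocount of 1 and at 0.054 with 0.1. With the share of counts in long genes as a covariate, chosen after seeing the data and partly tied to group, Klf2 was at 0.17 and Klf4 at -0.0062. Scaling to the pan-endothelial markers, which moved the median of all genes to -2.64 and called 13307 genes, gave -2.84 for Klf2, -2.60 for Klf4, -3.21 for Klf6 and -1.82 for Piezo1; all 4 then passed the threshold as lower with Tamoxifen, which turned the sign of Klf4 and Piezo1. The same scaling turned Klf3 to -1.83, Klf13 to -2.17, Kdr to -0.17, Gna11 to -1.20, Heg1 to -0.63, Map3k3 to -2.05, S1pr1 to -0.69, Adamts5 to -0.61, Sele to -1.30, Angpt2 to -0.54, Egr3 to -1.63, Amotl1 to -1.51, Ppard to -2.16, Pecam1 to -0.98 and Lyz2 to -2.36. Leaving out each library in turn gave -0.58 to 0.23 for Klf2, 0.05 to 0.56 for Klf4, -0.69 to -0.40 for Klf6 and 0.93 to 1.59 for Piezo1. The number of genes called was 0 to 256 when each library was left out (256 without oil2453, 31 without oil2368), 574 with DESeq2, 177 with library size alone, 68 with no filter, and 317 and 221 in the FPKM fits with a pseudocount of 1 and 0.1. The causes were not tested. In every alternative but the scaling to endothelial markers, Klf2, Klf4, Klf6 and Piezo1 stayed above an adjusted p of 0.05.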
